A study of Mus musculus with 4 samples.

Results

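In 38B9 pro-B cells, 4084 autosomal windows of 1 kb carried a local excess of total histone H3 reads over 3 other mouse libraries. The windows were selected on the reads themselves. On a grid counted from position 1 of each chromosome (build mm8), a window was chosen by 2 values: at least 20 distinct positions in the pro-B library, and a share of that library's autosomal positions at least 3 times the highest share among the other libraries. A position is a mapped read start with its strand, counted once however many reads share it. Chromosome 12 from 113000001 to 117500000 and chromosome 6 from 67000001 to 71500000 were left out. That leaves 2453430 tested windows of 2630717 on chromosomes 1 to 19, X and Y. On those chromosomes as a whole 4236 windows met the limits, of which 127 lay in the stretch of chromosome 12, 12 in that of chromosome 6 and 13 on X or Y.

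Histone H3 is a core protein of the nucleosome and is bound along almost the whole genome. An antibody against total H3 recovers nucleosomes whatever their modifications, and such libraries are often used as a measure of nucleosome occupancy or as a background for marks on H3. Pro-B cells are early B lineage cells in which the heavy chain immunoglobulin genes are being rearranged.

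There were 4 libraries, 1 per group, all from chromatin precipitated with the same anti-H3 antibody. The pro-B group was 38B9, a pro-B line transformed with Abelson murine leukaemia virus, under normal culture. The myotube group was the C2C12 myoblast line after 48 h of differentiation in horse serum medium. Both ES groups were V6.5 embryonic stem cells of C57BL/6-129 background, taken off their feeder cells onto gelatin before harvest. One was exposed to SB431542, an inhibitor of TGF-beta receptor kinases, at 10 uM for 24 h, and the other was untreated. The libraries held 13015879 (pro-B), 12432118 (myotube), 13469179 (ES SB431542) and 13132855 (ES untreated) distinct autosomal positions. Since each group is a single library, no test and no replicate check was possible, and differences describe these libraries. All intervals are 95% exact binomial intervals and cover counting error only. In flank and neighbour levels a position was counted for each chosen window near it. The intervals of those levels are therefore too narrow even for counting error. No input library was used here, so the number of DNA copies cannot be told apart from the H3 on each copy. Per the file headers the SB431542 library was sequenced in a later run, which cannot be told apart from the treatment. No gene was placed on the windows, since no annotation of mm8 was used here.

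The 4084 windows made up 0.166% of those tested. The same limits applied to each other library in turn found 120 windows for myotubes (0.00489%), 39 for SB431542-treated ES cells (0.00159%) and 26 for untreated ES cells (0.00106%). The 2 ES libraries were set against each other there, which holds their counts down. Dense windows as such were also more frequent in the pro-B library. At least 20 positions were reached by 19510 tested windows in pro-B cells, 1912 in myotubes, 2570 in SB431542-treated and 1295 in untreated ES cells. The chosen windows were thus 4084 of the 19510 dense pro-B windows.

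Within the chosen windows the pro-B library held 20 positions at the lowest, 25 at the median and 58 at the highest. At the same points the myotube library held 0, 5 and 14, the SB431542 library 0, 6 and 14, and the untreated ES library 0, 6 and 14. No window overlapped between pro-B and the others, which the limits fix. Over the 2235194 tested windows with a position in any library the medians were 5 (pro-B), 5 (myotube), 6 (ES SB431542) and 6 (ES untreated). The 3 other libraries were therefore at about their usual level in these windows, with means of 5.29 against 5.55 in myotubes, 5.82 against 6.01 in SB431542-treated cells and 5.76 against 5.86 in untreated ES cells. Their upper end was cut by the rule, as a window with more positions in any of them needed still more in pro-B cells.

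**Figure D1:**
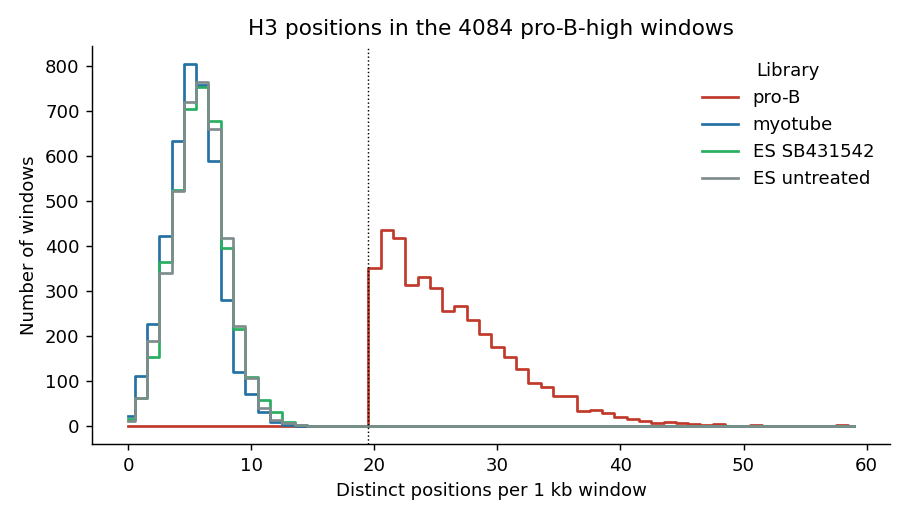
Number of chosen windows (vertical axis) by distinct positions per 1 kb window (horizontal axis) in each of the 4 libraries, with the limit of 20 positions as a dotted line. The pro-B library runs from 20 to 58 and is most crowded just above its limit, and the other libraries run from 0 to 14 with medians of 5 or 6.

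Most windows held fewer than 30 pro-B positions. Of the 4084, 1853 held 20 to 24 pro-B positions, 1269 held 25 to 29, 873 held 30 to 39 and 89 held 40 to 58. The ratio of the pro-B share to the highest other share had a median of 3.53 and ran from 3.001 to 10.9, and 329 windows (8.06%) reached 5. Just inside the count limit were 351 windows with exactly 20 positions, and just outside were 472 windows with 19 that met the ratio limit. The first of those inside by position, chromosome 1 from 6749001 to 6750000, held 20 positions in pro-B cells, 4 in myotubes, 5 in SB431542-treated ES cells and 3 in untreated ES cells. The first outside, chromosome 1 from 9832001 to 9833000, held 19 (pro-B), 3 (myotube), 5 (ES SB431542) and 3 (ES untreated). At the ratio limit 720 windows lay between 3 and 3.15, and 922 dense windows lay between 2.85 and 3. The nearest inside, chromosome 1 from 16497001 to 16498000, held 29 (pro-B), 5 (myotube), 10 (ES SB431542) and 4 (ES untreated) positions, a ratio of 3.001. The nearest outside, chromosome 1 from 173758001 to 173759000, held 26 (pro-B), 5 (myotube), 9 (ES SB431542) and 1 (ES untreated), a ratio of 2.989. No gap in the data marks where the set ends.

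The windows with most pro-B positions were not single spikes. Chromosome 1 from 145676001 to 145677000 held 58 positions in pro-B cells, 8 in myotubes, 11 in SB431542-treated and 7 in untreated ES cells, and the windows before and after it held 20 and 34 in pro-B cells. Chromosome 3 from 22180001 to 22181000 held 58 (pro-B), 11 (myotube), 13 (ES SB431542) and 11 (ES untreated), with 42 and 25 pro-B positions in its neighbours. Chromosome 5 from 16512001 to 16513000 held 58 (pro-B), 11 (myotube), 13 (ES SB431542) and 14 (ES untreated), with 33 and 20 beside it. In all 3 the pro-B library stood above the others in both neighbours as well.

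The next in rank were alike. Chromosome 11 from 11868001 to 11869000 held 53 positions in pro-B cells, 7 in myotubes, 6 in SB431542-treated and 13 in untreated ES cells. Chromosome 13 from 19424001 to 19425000 held 51 (pro-B), 8 (myotube), 8 (ES SB431542) and 12 (ES untreated), and chromosome 15 from 66647001 to 66648000 held 51 (pro-B), 12 (myotube), 9 (ES SB431542) and 5 (ES untreated). Chromosome 10 from 21991001 to 21992000 held 50 (pro-B), 4 (myotube), 12 (ES SB431542) and 7 (ES untreated), and was the middle of 5 chosen windows in a row with 29, 38, 50, 48 and 37 pro-B positions. Chromosome 6 from 50937001 to 50938000 held 48 (pro-B), 8 (myotube), 7 (ES SB431542) and 13 (ES untreated). Among these 8 windows the ratio to the highest other library ran from 3.73 (interval 1.99 to 7.50) to 5.46 (2.84 to 11.5). None of the 8 was more than 20 kb from another chosen window.

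The windows with the highest ratios had fewer pro-B positions than these, and very few in the other libraries. Chromosome 2 from 156609001 to 156610000 held 21 positions in pro-B cells, 1 in myotubes, 2 in SB431542-treated and 1 in untreated ES cells, a ratio of 10.9 with an interval of 2.66 to 95.6. Chromosome 11 from 101780001 to 101781000 held 21 (pro-B), 2 (myotube), 0 (ES SB431542) and 0 (ES untreated), a ratio of 10.0 (2.45 to 88.2). The 8 highest ratios all rested on 20 to 29 pro-B positions and on at most 3 in any other library. Their intervals reach below 3, so the order by ratio is not fixed at this depth. At the first of them the windows on either side held 5 and 18 pro-B positions.

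Because the windows were picked for a high pro-B count, part of that count is picked with them. Each strand was therefore used to choose windows and the other strand to measure them, with at least 10 positions on the choosing strand and the same ratio limit. Plus-strand positions alone chose 6606 windows (0.269% of those tested), of which 2205 were also among the 4084. On the minus strand these held 8.55 positions per window in pro-B cells, 3.12 in myotubes, 3.49 in SB431542-treated and 3.43 in untreated ES cells. The ratio of the pro-B share to the pooled share of the 3 others was 2.55 (2.52 to 2.58) on the measured strand, where it was 5.31 on the choosing strand. Minus-strand positions chose 6557 windows (0.267%), which gave 2.55 (2.52 to 2.58) on the plus strand. By library the pro-B ratio of the first choice was 2.62 over myotubes (2.58 to 2.66), 2.53 over SB431542-treated ES cells (2.49 to 2.57) and 2.51 over untreated ES cells (2.48 to 2.55). The measured ratio was thus well under that of the choosing strand but above 1 against every other library.

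The same procedure set a scale for the other libraries. Windows chosen on the plus strand for myotubes numbered 1211 (0.0494%), and their minus-strand ratio to the other libraries was 1.37 (1.32 to 1.41). For SB431542-treated ES cells 1337 windows (0.0545%) gave 1.17 (1.13 to 1.21), and for untreated ES cells 944 windows (0.0385%) gave 1.15 (1.11 to 1.20). On the choosing strand all 3 had ratios of 4.90 to 5.15, close to that of the pro-B windows. The excess that returned on the unused strand was larger in pro-B cells than in any other library. Each ES library was again set against its own cell line.

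In width the windows were a part of wider rises. In the profile of all chosen windows the pro-B level was 25.8 positions per kb in the last 250 bp inside the window and 18.1 in the first 250 bp outside it. This step, and a width of 1033 bp at 50% of the height of the ratio, sit at the edge that the rule sets. Outside the edge the pro-B level was 16.2 per kb at 1000 to 1500 bp from the centre, 13.5 at 2 to 3 kb, 11.9 at 3 to 5 kb, 10.5 at 5 to 10 kb and 9.54 at 15 to 20 kb. Untreated ES cells held 6.37, 6.35, 6.14, 6.10 and 6.05 per kb at the same distances. Some windows outside the edge were chosen in their own right, which raises these pro-B levels. Where no other chosen window lay within 20 kb, the pro-B level was lower, at 13.0, 10.5, 9.1, 8.26 and 7.89 per kb. Untreated ES cells held 6.43, 6.46, 6.23, 6.09 and 6.06 per kb there. In both sets the pro-B level fell off over several kb and at 15 to 20 kb was still above that of each other library.

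The windows chosen on plus (6606) and on minus (6557) were pooled to 13163 entries, so a window chosen on both strands was entered for each. About 1 in 3 of the entries were among the 4084. The pooled entries showed no such step on the strand not used for the choice. Scaled to both strands, the pro-B library had 17.4 per kb within 250 bp of the centre, 16.6 at 250 to 500 bp, 15.1 at 500 to 750 bp and 12.9 at 1500 to 2000 bp. Untreated ES cells had 6.88, 6.72, 6.40 and 6.36. The ratio to the 3 others was 2.55 in the central 1 kb and 1.52 at 10 to 20 kb, and the width at 50% of the height between them was 3582 bp. Where no other window so chosen lay within 20 kb the width was 3071 bp, read in steps of 200 bp. For the 4084 windows themselves no 1-place position inside them is unused, and their width of 1033 bp rests on the edge of the grid. The word narrow, by which these windows had been called, is therefore not borne out by a value that the rule did not set.

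**Figure D2:**
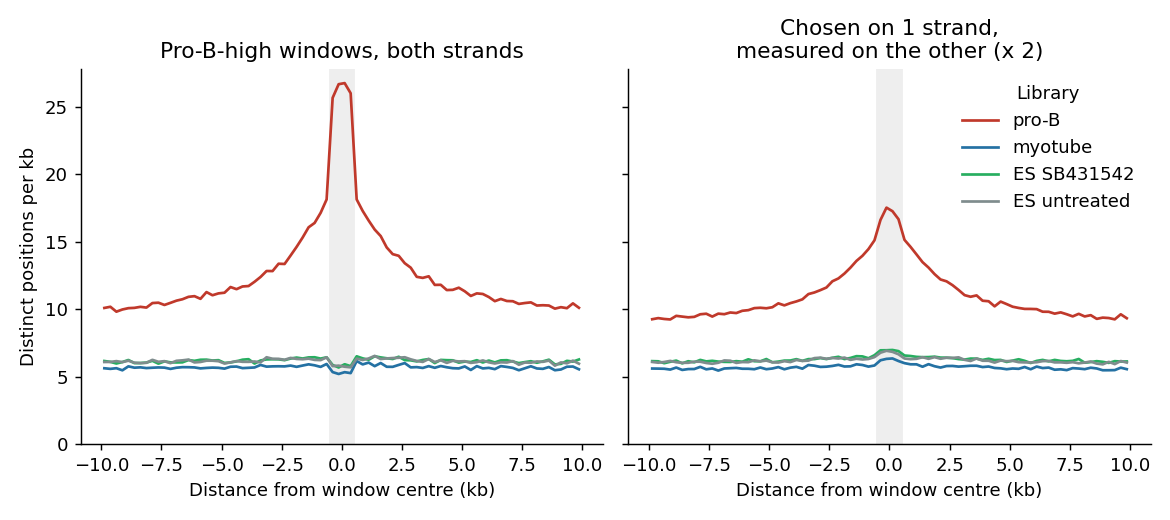
Distinct positions per kb (vertical axis) against distance from the window centre in kb (horizontal axis), averaged over 250 bp, for each of the 4 libraries, with the 1 kb window shaded. On the left, the 4084 windows show a step in the pro-B line from 25.8 to 18.1 per kb across the window edge, and on the right, windows chosen on 1 strand and measured on the other show a smooth pro-B rise to 17.4 per kb.

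Window by window the extent varied. Stretches were formed from neighbouring windows with at least 10 pro-B positions and a pro-B share of at least 2 times the mean of the other shares. The chosen windows fell in 3157 such stretches, with a median length of 3 kb, at least 10% of them 7 kb or longer, and the longest 28 kb. Of these, 549 (17.4%) were a single window, 1834 (58.1%) were at most 3 kb long and 884 (28.0%) were 5 kb or longer. Of the windows directly beside a chosen one, 47.5% held at least 10 pro-B positions and at least 2 times the highest other share. The figure was 32.1% for the 1712 windows with no other chosen one within 20 kb. At 100 kb from the chosen windows the same shares were 6.17% for all and 5.05% for the 1712. Neither these shares nor the stretches were taken over all tested windows.

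Inside a window the reads were not piled at a point. The densest 200 bp held a median of 40.7% of a window's pro-B positions in the chosen windows, and also 40.7% in the 15426 dense pro-B windows that missed the ratio limit. More than 50% of the positions lay in such a stretch in 14.5% of the chosen and in 12.8% of the other dense windows. The centre of a window at the mean of its strand medians, in place of the grid, gave a width of 1146 bp in place of 1033 bp.

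The chosen windows were clustered at several scales. The nearest other chosen window was directly adjacent for 960 (23.5%), within 5 kb for 1777 (43.5%, 42.0 to 45.0), within 20 kb for 2372 (58.1%) and within 1 Mb for 3946 (96.6%), with a median distance of 10000 bp. On average there was 1 chosen window per 600.7 tested. They formed 3548 runs of adjacent windows, of which 3124 held a single window, 341 held 2, 62 held 3 and 21 held 4 or 5. With starts at most 5 kb apart they formed 2993 groups, of which 2307 held a single window and 96 held 4 to 10. The other dense pro-B windows were grouped as well, with 54.3% within 5 kb of another.

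Denser windows had neighbours more often. Another chosen window lay within 20 kb for 52.0% of those with 20 to 24 pro-B positions, 58.2% with 25 to 29, 68.4% with 30 to 39 and 83.1% with 40 to 58. Windows in runs held a mean of 27.7 pro-B positions, and windows standing alone held 25.8.

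The group with most members was on chromosome 13 from 32665001 to 32688000, where 10 of 23 windows were chosen. The whole stretch held 542 positions in pro-B cells, 153 in myotubes, 121 in SB431542-treated and 149 in untreated ES cells, or 3.38 times the highest other share (2.82 to 4.08). This group and those below are bounded and ranked by windows that passed the rule. Their ratios and intervals are therefore in part set by the choice and are no separate measure of the excess. Its windows ran from 10 to 42 in pro-B cells, 2 to 16 in myotubes, 0 to 12 in SB431542-treated and 2 to 9 in untreated ES cells. The windows that missed the limits there also had a higher share in pro-B cells than in each other library. In these same counts the group was 1 stretch of 23 kb with an uneven pro-B level.

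The next 3 groups by members were shorter, with a larger share of chosen windows. Chromosome 14 from 14959001 to 14970000 had 9 chosen of 11 windows, with 316 positions in pro-B cells against 62 in myotubes, 76 in SB431542-treated and 73 in untreated ES cells, or 4.30 times the highest (3.34 to 5.60). Chromosome 3 from 59316001 to 59325000 had 8 of 9, with 284 in pro-B cells against 60 in myotubes, 56 in SB431542-treated and 50 in untreated ES cells, or 4.52 times (3.41 to 6.08). In the chromosome 3 stretch every window had at least 18 positions in pro-B cells and at most 14 in any other library. Chromosome 15 from 63448001 to 63461000 had 8 of 13, with 289 in pro-B cells against 83 in myotubes, 63 in SB431542-treated and 68 in untreated ES cells.

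The last 4 groups of the 8 with most members held 7 each, of 9, 9, 12 and 21 windows in the order named next. They were chromosome 1 from 145674001 to 145683000, chromosome 2 from 148251001 to 148260000, and chromosome 4 from 59348001 to 59360000 and from 97578001 to 97599000. In the order named, their stretches held 271, 252, 267 and 406 positions in pro-B cells. The pro-B share was 4.21, 4.08, 3.37 and 3.66 times the highest other share. The one on chromosome 1 contains the window with the most pro-B positions of all. Over the 8 groups the highest other library was myotubes in 5 and an ES library in 3.

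In larger bins the windows were as uneven. Of 2351 bins of 1 Mb, 1256 (53.4%) held none, the mean was 1.73 and the highest 36, and the variance was 5.71 times the mean. The 10% of bins with most held 54.1% of the chosen windows. The bin with most was chromosome 11 from 44000001 to 45000000 with 36. Chromosome 4 from 102000001 to 103000000 followed with 28, chromosome 14 from 30000001 to 31000000 with 23 and chromosome 13 from 32000001 to 33000000, which contains the largest group, with 22. Of 23358 bins of 100 kb, 90.6% held none, the highest held 16 and 15 held 10 or more.

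The level of the surroundings moved with the number of windows. In bins of 100 kb with at least 20 windows left after leaving out the chosen windows and 5 kb on either side, a looser filter on bins than above, the pro-B library held 5.14 positions per kb where no window had been chosen (21602 bins), 7.29 with 1 (1343 bins), 8.06 with 2 or 3 (625 bins) and 9.19 with 4 to 16 (227 bins). In the same bins myotubes held 5.19, 5.41, 5.54 and 5.52, SB431542-treated ES cells 5.60, 6.07, 6.09 and 5.98, and untreated ES cells 5.45, 6.04, 6.05 and 5.97. The pro-B share over the pooled share of the others was 0.949 with none, 1.25 with 1, 1.37 with 2 or 3 and 1.58 with 4 to 16. Without chromosome 8 the last 3 values were 1.25, 1.37 and 1.58 again, and the first 0.964. A window passes a fixed limit more readily where the level around it is high, so this order is in part set by the rule.

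**Figure D3:**
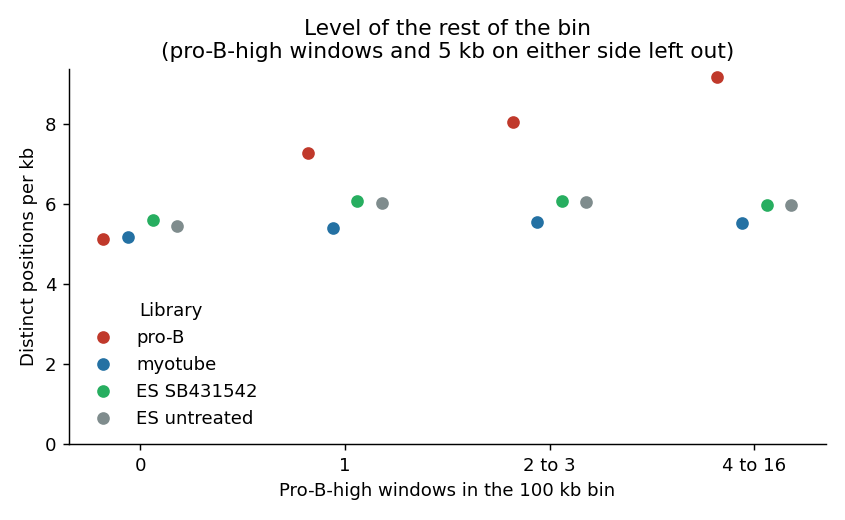
Distinct positions per kb (vertical axis) in bins of 100 kb, outside the chosen windows and 5 kb on either side, by the number of chosen windows in the bin (horizontal axis), for each of the 4 libraries. The pro-B points go up from 5.14 to 9.19 per kb across the 4 classes, and the points of the other libraries stay between 5.19 and 6.09.

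Windows without close company also sat on a raised level, though a lower one. For the 1712 with no other chosen within 20 kb, the pro-B ratio to the 3 others was 2.21 in the adjacent windows (2.19 to 2.24), 1.82 at 2 kb, 1.45 at 5 kb, 1.33 at 20 kb and 1.27 at 100 kb. For all 4084 it was 2.72 (2.70 to 2.74), 2.33, 1.90, 1.59 and 1.35. These neighbours were not used to choose the window itself, although for the full set some of them were chosen in their own right. By either set the pro-B library was still above the others 100 kb away.

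By chromosome the windows ranged from 2.72 per 1000 windows with reads on chromosome 11 (313 windows) and 2.52 on chromosome 19 (141) down to 1.36 on chromosome 18 (114) and 0.505 on chromosome 8 (60). Chromosome 8 as a whole had 0.760 times the mean share of the other libraries in pro-B cells, and the other autosomes had 0.930 to 1.07 times. With shares taken within the chromosome, chromosome 8 had 163 windows or 1.37 per 1000. That was still the lowest of the autosomes, which ran up to 2.57, with chromosome 12 next to it at 1.40. The cause of the low count on chromosome 8 was not tested. Under that scaling 3946 windows passed in all, 3696 of them among the 4084.

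Strand was used neither to choose nor to rank the windows. Of the pro-B positions in them 53907 were plus and 53372 minus, or 50.2% plus (49.9 to 50.5). A window held 2 to 32 plus positions with a median of 13, and 1 to 32 minus positions with a median of 13. In 158 windows (3.87%) under 25% of the positions lay on the weaker strand. In nearly all windows each strand thus held at least 25% of the pro-B positions. Whether each strand of a window also held an excess over the other libraries was not tested by this split.

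The distance from plus to minus positions reflects fragment length. Per the labels' protocols, chromatin was sonicated to an average of 500 bp, and gel-cut libraries stood for inserts of 50 to 200 nt. In the chosen windows the most frequent distance in the pro-B library was 58 bp, and elsewhere on the autosomes it was 54 bp. Minus positions were read as the left end of 36-base reads, because in all 4 libraries pairs at a distance of -36 bp were 1.21 to 1.29 times as frequent elsewhere as pairs at 200 to 400 bp, and pairs at -35 bp only 0.755 to 0.822 times. With the read length added, 58 and 54 bp correspond to fragments of 94 and 90 bp. The height of this maximum over pairs at 200 to 400 bp was 1.33 in the chosen windows and 1.31 elsewhere, and over pairs at 600 to 1000 bp it was 1.51 and 1.36.

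The most frequent distance at the chosen windows was thus within 4 bp of that in the rest of the pro-B library. In the other libraries the distance elsewhere was 54 bp in myotubes, 45 bp in SB431542-treated and 55 bp in untreated ES cells. In the chosen windows it was 70 bp in myotubes, 43 bp in SB431542-treated and 46 bp in untreated ES cells, from only 75138 to 88946 pairs each against 1083215 in pro-B cells. Distances near the read length of 36 bp were left out of all these maxima. Among those left out, 40 bp in the SB431542 library stood at 1.371 relative to pairs at 200 to 400 bp, against 1.369 at 43 bp. Window by window, the median minus position less the median plus position was 9 bp at the median, with 10% below -263 bp and 10% above 255 bp. Single windows therefore showed no fixed shift between strands at this depth.

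**Figure D4:**
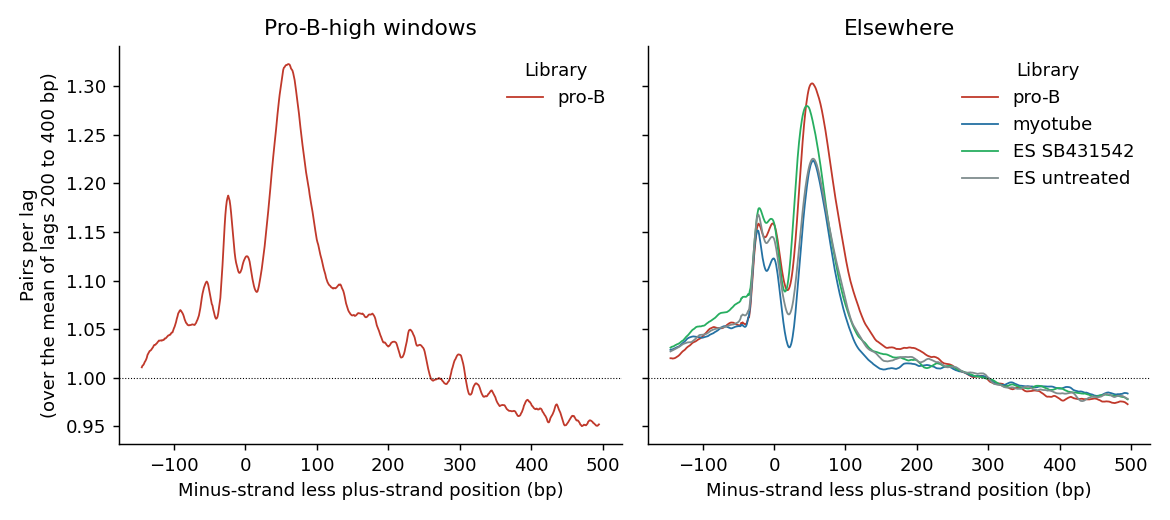
Pairs of a plus and a minus position by their distance in bp (horizontal axis), relative to the mean of distances of 200 to 400 bp (vertical axis, which does not start at 0), averaged over 11 bp and then over 11 bp again. Before the second averaging, the pro-B maximum in the chosen windows (left) is at 58 bp. Elsewhere (right) the maxima of the 4 libraries then lie between 45 and 55 bp. The drawn maxima can lie slightly off these values.

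The highest of the other libraries differed from window to window. The rule limits each of them to a fixed fraction of the pro-B share, so the counts here describe limited values and say nothing of windows where another library stood high. Myotubes had the highest of the 3 other shares in 1380 windows (33.8%, 32.3 to 35.3), SB431542-treated ES cells in 1187 (29.1%, 27.7 to 30.5), untreated ES cells in 1431 (35.0%, 33.6 to 36.5), and 86 (2.11%) were tied. No library was next to pro-B cells in most windows. Myotubes reached at least 2 times both ES shares in 64 windows (1.57%), and both ES libraries reached at least 2 times the myotube share in 279 (6.83%). The second count needs 1 library to be low and the first needs 2, so they are not on 1 scale. Neither these counts nor the split of the highest other library were taken over windows that were not chosen. Whether they differ from the usual rate at such low counts was not tested.

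The clearest windows of both kinds were small in counts. Chromosome 19 from 33185001 to 33186000 held 39 positions in pro-B cells, 12 in myotubes, 6 in SB431542-treated and 4 in untreated ES cells. Chromosome 7 from 88103001 to 88104000 held 32 (pro-B), 10 (myotube), 5 (ES SB431542) and 5 (ES untreated), chromosome 9 from 105690001 to 105691000 held 32 (pro-B), 10 (myotube), 5 (ES SB431542) and 4 (ES untreated), and chromosome 10 from 110936001 to 110937000 held 34 (pro-B), 10 (myotube), 5 (ES SB431542) and 3 (ES untreated). In these 4 myotubes were between the pro-B and the ES level. The ES libraries lay between in chromosome 8 from 97911001 to 97912000, with 36 (pro-B), 3 (myotube), 11 (ES SB431542) and 11 (ES untreated), and in chromosome 13 from 19188001 to 19189000, with 41 (pro-B), 4 (myotube), 11 (ES SB431542) and 11 (ES untreated). They did so too in chromosome 7 from 113980001 to 113981000, with 41 (pro-B), 1 (myotube), 12 (ES SB431542) and 10 (ES untreated), and in chromosome 10 from 21993001 to 21994000, with 37 (pro-B), 4 (myotube), 12 (ES SB431542) and 10 (ES untreated). The last of these is in the run of 5 windows described above.

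The level of the other libraries over their flanks depended on how the windows were chosen. At the 4084 windows the level over that of the flanks at 5 to 20 kb in the same library was 2.64 in pro-B cells, 0.945 in myotubes, 0.953 in SB431542-treated and 0.950 in untreated ES cells. The rule limits the other libraries in these windows, and its part in the values under 1 was not tested. The same contrast was taken on the unused strand for the 13163 pooled entries chosen on either strand, most of them not among the 4084. It was 1.85 in pro-B cells (1.84 to 1.86), 1.12 in myotubes (1.11 to 1.14), 1.13 in SB431542-treated (1.12 to 1.15) and 1.12 in untreated ES cells (1.11 to 1.13). With flank windows without any position left out it was 1.80 (pro-B), 1.10 (myotube), 1.11 (ES SB431542) and 1.10 (ES untreated). At 500 to 1000 bp from the centre of the 4084 windows, just outside them, it was 1.78 (pro-B), 1.06 (myotube), 1.05 (ES SB431542) and 1.04 (ES untreated). All 3 other libraries were thus slightly above their own flanks on the unused strand and just outside the windows, with the largest part of the rise in pro-B cells. Some windows just outside were chosen in their own right. Where no other chosen window lay within 20 kb, the values just outside were 1.06 (myotube), 1.08 (ES SB431542) and 1.03 (ES untreated). The part of choosing windows dense in 1-place positions in these values was not tested.

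In denser windows the other libraries were above their flanks. For the 962 windows with at least 30 pro-B positions the level over the flanks was 3.13 in pro-B cells, 1.13 in myotubes, 1.16 in SB431542-treated and 1.17 in untreated ES cells. The ratio limit lets the other libraries hold more positions where the pro-B count is higher, and its part in this change was not tested. Over all chosen windows, the 3 others were all below the mean of their own library in 21.1% of the chosen windows and in 25.7% of the windows that were not chosen. All 3 were at or above it in 14.3% of the chosen and 18.6% of the other windows. At least 2 times their own mean was reached in 0.294% of the chosen windows by myotubes, 0.294% by SB431542-treated and 0.563% by untreated ES cells, against 3.99% to 5.30% of the windows that were not chosen. The ratio limit holds down high values of the other libraries in the chosen windows. The shares at or above the mean and at 2 times the mean are therefore in part set by the rule.

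Reads with 2 reported places are listed in a section of the files that was not used to choose windows. At the chosen windows they amounted to 0.247 positions per kb in pro-B cells, 0.106 in myotubes, 0.116 in SB431542-treated and 0.115 in untreated ES cells, and elsewhere to 0.325 (pro-B), 0.319 (myotube), 0.357 (ES SB431542) and 0.344 (ES untreated). The pro-B share over the pooled share of the others was 2.25 (2.07 to 2.44) at the windows and 1.32 (1.31 to 1.34) at 5 to 20 kb from them. The pro-B excess was thus also seen in these reads. They were sparse at the windows relative to the flanks in each of the other libraries, at 0.482 times in myotubes, 0.482 in SB431542-treated and 0.493 in untreated ES cells, and at 0.826 times in pro-B cells. The rule chose windows dense in 1-place positions, and its part in this sparseness was not tested.

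Repeated reads were set aside before the windows were chosen. Of the reads with 1 place in the chosen windows, 4.79% (4.67 to 4.92) repeated a position and strand in pro-B cells, 3.29% in myotubes, 5.59% in SB431542-treated and 2.76% in untreated ES cells. Elsewhere the shares were 2.79% (pro-B), 3.44% (myotube), 5.52% (ES SB431542) and 2.82% (ES untreated). Only the pro-B library had a higher share at the windows than elsewhere outside the counting intervals, and the density of positions was also higher there. The part of that density in the repeats was not tested. With all reads counted, 4953 windows met the limits, 3763 of them among the 4084.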

How the data were processed

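The deposited files hold, in 1 column, the signed start of each aligned read and no other unit or normalisation by the authors. The alignment used Bowtie on build mm8 with options -e 70, -k 2, -m 2, -n 2 and -l 36, per the file headers, and its version was not given. The files have a section read here as reads with 1 place and another read as reads with 2 places. Distinct positions were counted in 1 kb windows and divided by each library's autosomal total. No fragment extension was applied and window counts were not smoothed. Pairs by strand distance were averaged over 11 bp, and over 11 bp again for the drawn lines only. The windows, limits and readings were chosen with earlier results of these data known. Named windows are the 8 with most pro-B positions, the 8 with the highest ratio, the 8 groups with most members, those nearest each limit, and 4 of each kind of grading. Intervals are exact conditional binomial. They cover counting error only, because amplified reads that carry no molecular identifier need not be independent. For flanks and neighbours, which overlap between windows, they are narrower than counting error. Counts, strand distances and widths were checked on simulated data. Python 3.11.15, numpy 2.4.6, scipy 1.17.1, pandas 2.3.3 and matplotlib 3.10.9 were used. Alternatives covered the limits, repeats, 2-place reads, grid, scaling, flanks and the SB431542 library.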

Additional observations from a re-analysis of the deposited data

How the results depend on the processing

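Of 44 values under alternatives, 18 stayed within 1.5 times for numbers of windows, within 100 bp for widths or within the counting interval, 20 moved and 6 changed side. The number of windows (4084) followed the limits. It was 12405 at 2 times and 329 at 5 times the highest other share, 962 with at least 30 and 6452 with at least 15 positions, and 6180 with the SB431542 library left out. The share within 5 kb of another (43.5%) was 31.6% with at least 30 positions and 13.1% at 5 times, with fewer windows left. The width of 1033 bp was 1146 bp with centres at the strand medians and 3582 bp held out by strand, an alternative chosen after seeing the data. The held-out ratio of 2.55 was 3.11 with at least 15 positions on the choosing strand. The level over the flanks in pro-B cells (2.64) was 2.11 with flanks at 2 to 5 kb, 3.15 without another window within 20 kb, 3.13 with at least 30 positions and 1.85 held out by strand. In myotubes (0.945) it was 0.922 with the nearer flanks, 1.13 with at least 30 positions and 1.12 held out. In SB431542-treated ES cells (0.953) it was 0.936 with the nearer flanks, 0.939 without another window within 20 kb, 1.16 with at least 30 positions and 1.13 held out. In untreated ES cells (0.950) it was 0.928 with the nearer flanks, 1.17 with at least 30 positions and 1.12 held out. The held-out levels over the flanks were likewise alternatives chosen after seeing the data. Those of the other libraries are among the 6 values that changed side. With repeats counted, the highest other library was myotubes in 31.7% in place of 33.8% and SB431542-treated ES cells in 32.5% in place of 29.1%. The looser or stricter limits set their changes by construction, and for the others the cause was not tested. No paired analysis was possible because each group has 1 library. At 20 to 58 pro-B and 0 to 14 other positions a window, single ratios have wide intervals.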
